A study of Mus musculus with 6 samples.

Results

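The genes described here are those of MHC class II presentation: H2-Aa, H2-Ab1, H2-Eb1, H2-DMa, H2-DMb1, H2-DMb2, H2-Oa, Cd74, Ciita and Ctss. They were taken from the deposited expression table by gene name. All 10 listed genes had a row among the 23494 genes of the table, and all 10 averaged at least 1 TPM (the share of each library's transcripts that a gene holds, corrected for length) over the 6 libraries, which put them among the 12865 genes tested.

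The study gave wild type female C57BL/6 mice B16F10 melanoma cells, a transplantable mouse melanoma line, under the skin of the flank. Once tumours averaged about 60 mm3, mice received daily intraperitoneal injections of phosphate-buffered saline (vehicle) or of recombinant MANF (rMANF, mesencephalic astrocyte-derived neurotrophic factor, a protein of the endoplasmic reticulum that is also secreted) at 2 µg/kg. The labels give 8 mice per treatment group, the tissue as heart, and 3 biological replicates per group. Every mouse carried the tumour, so vehicle is a control for the injected protein and not for the tumour, and no age is stated. Columns of the vehicle libraries are headed IgG in the table, whereas the labels name saline.

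MHC class II molecules display peptides from endocytosed proteins to CD4+ T cells. In antigen-presenting cells (dendritic cells, macrophages and B cells) an alpha and a beta chain assemble in the endoplasmic reticulum around the invariant chain, the product of Cd74. In the endosome the protease cathepsin S trims the invariant chain, and H2-DM, opposed by H2-O, exchanges the remaining fragment for antigenic peptide. Transcription of the chains, of Cd74 and of H2-DM depends on the coactivator CIITA, which binds no DNA itself but joins factors assembled on the X and Y boxes of the promoters, and which interferon gamma induces. In C57BL/6 mice the E alpha gene is a pseudogene, so these mice display H2-A and no H2-E at the cell surface although H2-Eb1 is transcribed.

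Heart muscle markers, 8 of 11 with rows, summed to between 7.47 and 31.6 TPM per library. Nppa and Pln stayed at or under 0.541 and 0.0432 TPM, so the tissue label is not borne out by defining genes of heart muscle. Skeletal muscle markers, 12 genes, summed to 110, 1219 and 27.9 TPM across vehicle replicates 1 to 3, against 19.9, 9.06 and 7.36 TPM across rMANF replicates 1 to 3. Vehicle replicate 2 therefore stood apart, and the differences of the 10 class II genes are also given without it. TPM keeps no record of read number, so depth is unknown, and the labels do not say that the replicates came from separate mice, so p-values measure the spread between these samples only.

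Class II chain, invariant chain, cathepsin S and H2-DM alpha transcripts lay lower in every library labelled rMANF than in every library labelled vehicle. This held for 6 of the 10 genes (H2-Aa, H2-Ab1, H2-Eb1, Cd74, Ctss and H2-DMa), beside 9.02% of all tested genes with that order of the groups. For 0 of the 10 did all rMANF values lie above all vehicle values, against 18.9% of tested genes. None of the 10 passed limma's test at a Benjamini-Hochberg adjusted p of 0.05, and neither did any other gene (0% of the 12865, with a lowest adjusted p of 0.0893). At an unadjusted p under 0.05 the same 6 genes lay lower, beside 6.63% of all tested genes that lay lower at that level. The median difference over the 10, as rMANF minus vehicle on the log2(TPM + 1) scale, was −0.72, where the median over all tested genes was 0.04. Without vehicle replicate 2 the median was −0.56 and the count without overlap was again 6 of 10. Of the 10 genes, H2-Aa then differed by −0.91, H2-Ab1 by −0.84, Cd74 by −0.97, Ctss by −0.62 and H2-Oa by −0.08, and the values of the other 5 stand beside each gene. In bulk RNA, fewer cells of a type and less RNA per cell cannot be told apart.

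**Figure D1:**
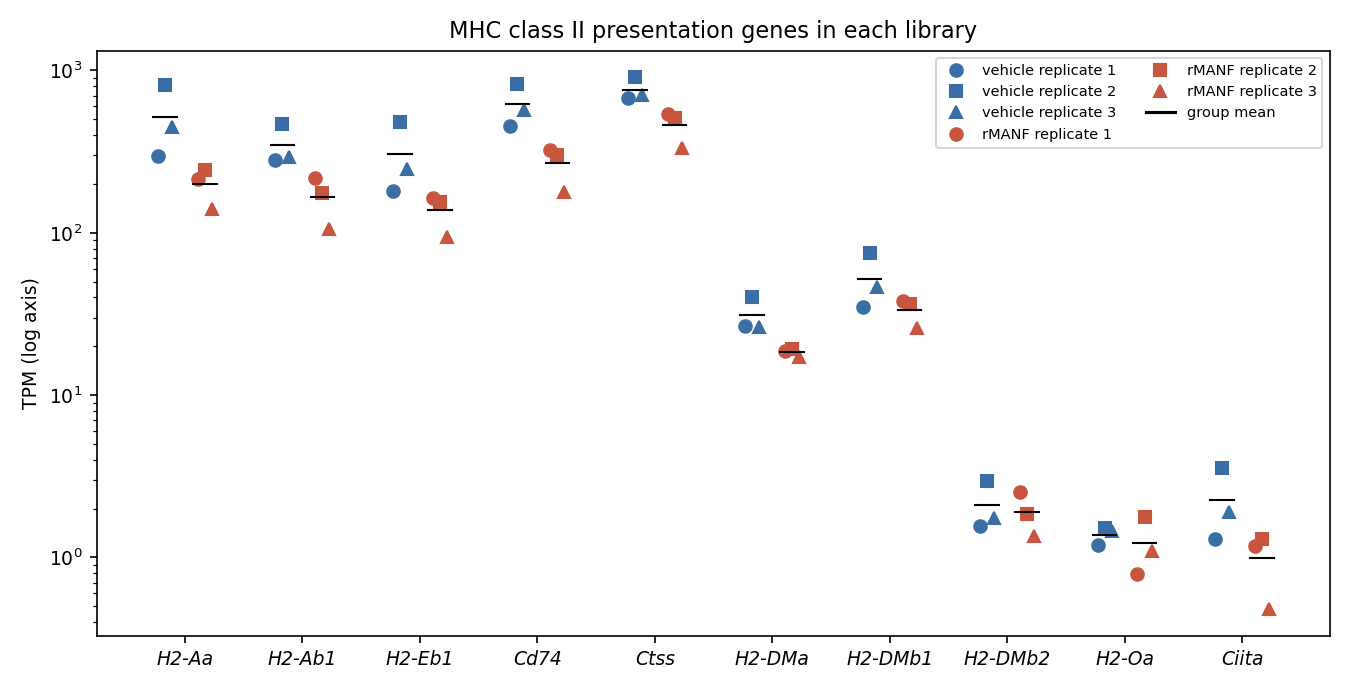
TPM (log axis) of the 10 genes in each of the 6 libraries, vehicle in blue and rMANF in red, with 1 symbol per replicate number and a black line at each group mean. For H2-Aa, H2-Ab1, H2-Eb1, Cd74, Ctss and H2-DMa all 3 rMANF points lie below all 3 vehicle points, and vehicle replicate 2 (blue square) is the highest point of 9 of the 10 genes.

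The classical alpha and beta chains form the peptide-binding heterodimer. H2-Aa, the A alpha chain (chromosome 17, 34282744 to 34287823, minus strand, GRCm38), measured 297, 812 and 449 TPM across vehicle replicates 1 to 3, against 214, 243 and 141 TPM across rMANF replicates 1 to 3. No rMANF library reached the lowest vehicle library, and within the vehicle group the highest value was 2.73 times the lowest. The log2 difference was −1.29 ± 0.35 (SE; limma, adjusted p = 0.121), the largest of the 10, with a vehicle mean 2.61 times the rMANF mean.

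H2-Ab1, the A beta chain (chromosome 17, 34257689 to 34269419, plus strand), measured 282, 470 and 293 TPM under vehicle, against 218, 177 and 106 TPM under rMANF. Its vehicle values were closer together than those of H2-Aa, and rMANF replicate 3 was the lowest library. The difference was −1.08 ± 0.28 (SE; limma, adjusted p = 0.116). H2-Eb1, the E beta chain (chromosome 17, 34305867 to 34316674, plus strand), measured 180, 484 and 249 TPM under vehicle, against 164, 155 and 94.4 TPM under rMANF. Here vehicle replicate 1 and rMANF replicate 1 lay close together, so the groups barely separated, and the difference of −1.05 ± 0.35 (SE; limma, adjusted p = 0.163) was −0.65 without vehicle replicate 2. Of the further class II genes, H2-Ob and H2-Eb2 stayed at or under 0.785 and 0.812 TPM in every library and were too low to test, and the E alpha gene was not analysed here.

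The promoters of these genes are shown because the X and Y boxes are where CIITA-dependent factors assemble. RefSeq promoters (GRCm38.p6, from 250 bases before to 50 after the start) were found for 7 of the 10 genes, and not for H2-Ab1, Cd74 and Ciita. They were searched on both strands for TGATTGG (a Y box form, holding the reversed CCAAT box), AACNNATG (the end of the X box) and the core of an interferon-stimulated response element (paired GAAA blocks). The letters were chosen after the member promoters had been read, so matches are a description. Each sequence runs 5′ to 3′ on the gene's own strand over the 130 bases before the start, with matches in capitals.
H2-Aa, chr17:34287824-34287953, minus: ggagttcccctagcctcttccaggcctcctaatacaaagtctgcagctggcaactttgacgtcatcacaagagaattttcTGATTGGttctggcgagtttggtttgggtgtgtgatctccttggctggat
H2-Eb1, chr17:34305737-34305866, plus: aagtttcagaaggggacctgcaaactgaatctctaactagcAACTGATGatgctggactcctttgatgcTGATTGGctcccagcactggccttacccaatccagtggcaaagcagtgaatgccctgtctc
H2-DMb1, chr17:34153061-34153190, plus: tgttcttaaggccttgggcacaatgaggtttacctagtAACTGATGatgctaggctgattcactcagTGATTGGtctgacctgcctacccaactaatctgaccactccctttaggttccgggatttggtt
H2-DMb2, chr17:34145119-34145248, plus: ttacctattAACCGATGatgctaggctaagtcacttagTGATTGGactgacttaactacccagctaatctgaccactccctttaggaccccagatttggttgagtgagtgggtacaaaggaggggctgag
H2-Oa, chr17:34092249-34092378, plus: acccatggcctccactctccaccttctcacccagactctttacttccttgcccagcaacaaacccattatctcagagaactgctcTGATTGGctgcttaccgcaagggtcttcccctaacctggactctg
Ctss, chr3:95526656-95526785, plus: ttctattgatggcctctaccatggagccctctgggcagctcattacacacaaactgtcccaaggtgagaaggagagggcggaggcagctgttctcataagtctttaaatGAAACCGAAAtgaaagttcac

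TGATTGG stood in the promoters of 5 of the 7 genes (H2-Aa, H2-Eb1, H2-DMb1, H2-DMb2 and H2-Oa), starting between 92 and 45 bases before the start, and in 7.82% of all 32851 RefSeq promoter windows of 300 bases. AACNNATG stood in H2-Eb1, H2-DMb1, H2-DMb2 and, further upstream than the stretch shown, Ctss, and in 8.86% of all windows. The arrangement of AACNNATG followed by TGATTGG on the same strand after 15 to 25 bases was found in 7 windows of all 32851 (0.0213%). Of these 7, 3 were members (H2-Eb1, H2-DMb1 and H2-DMb2) and H2-Ob and H2-Eb2 were another pair of class II genes. The rest were AU016765 and BC051142, which are neither members nor among the genes tested. The interferon-stimulated response element core stood in Ctss alone of the 7 genes, 21 bases before its start, and in 3.44% of all windows. Neither of the 2 windows of H2-DMa, which are not printed here, held any of these letters. The first of them also holds the annotated start of the neighbouring gene Brd2 on the other strand. Genes with TGATTGG differed by −1.29 (H2-Aa), −1.05 (H2-Eb1), −0.58 (H2-DMb1), −0.12 (H2-Oa) and −0.08 (H2-DMb2). Without it, Ctss and H2-DMa differed by −0.75 and −0.70. H2-DMb2 and H2-Oa were low, where the log2(TPM + 1) scale shrinks differences. A link between the letters and the differences was not tested.

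Peptide editing is the work of H2-DM, a heterodimer of an alpha chain from H2-DMa and a beta chain from H2-DMb1 or H2-DMb2. H2-DMa (chromosome 17, 34119541 to 34139101, plus strand) measured 26.6, 40.3 and 26.2 TPM across vehicle replicates 1 to 3, against 18.6, 19.2 and 17.2 TPM across rMANF replicates 1 to 3. The rMANF values lay close together and all under the lowest vehicle value. The difference was −0.70 ± 0.16 (SE; limma, adjusted p = 0.101), and −0.50 without vehicle replicate 2. The annotated span of the gene overlaps in part that of Brd2 on the other strand (34112023 to 34122634). This unstranded library type cannot tell apart reads from the shared stretch. Brd2 runs on the minus strand, so 34122634 is its start. Both RefSeq starts of H2-DMa, just after 34122831 and 34125517, lie beyond it. Brd2 went the other way, at 79.5 ± 4.20 TPM under vehicle, against 96.5 ± 2.74 TPM under rMANF (SD, n = 3 each).

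H2-DMb1 (chromosome 17, 34153072 to 34160230, plus strand) measured 34.9, 75.4 and 46.5 TPM under vehicle, against 37.8, 36.4 and 26.0 TPM under rMANF. Vehicle replicate 1 lay below 2 of the 3 rMANF libraries, so the groups overlapped. The difference of −0.58 ± 0.27 (SE; limma, adjusted p = 0.270) was −0.28 without vehicle replicate 2. H2-DMb2 (chromosome 17, 34143307 to 34151555, plus strand) was far lower, at 1.56, 2.97 and 1.74 TPM under vehicle, against 2.52, 1.85 and 1.35 TPM under rMANF, and its groups overlapped throughout. Its difference of −0.08 ± 0.24 (SE; limma, adjusted p = 0.889) turned to 0.12 without vehicle replicate 2. Transcripts of both beta genes match at 94.4% of 1255 aligned bases, and 26.8% of the 50-base words of the H2-DMb2 transcript also occur in that of H2-DMb1, so the division of reads between both is uncertain.

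H2-Oa encodes the alpha chain of H2-O, the inhibitor of H2-DM that is best known from B cells. It measured 1.19, 1.51 and 1.45 TPM under vehicle, against 0.789, 1.78 and 1.10 TPM under rMANF (chromosome 17, 34092340 to 34095234, plus strand). The highest and the lowest of all 6 values both came from the rMANF group. The difference was −0.12 ± 0.23 (SE; limma, adjusted p = 0.808).

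Cd74, the invariant chain, also serves as a receptor subunit for the cytokine MIF. It lies apart from the other genes on chromosome 18 (60803848 to 60812652, plus strand) and measured 455, 827 and 574 TPM across vehicle replicates 1 to 3, against 326, 301 and 178 TPM across rMANF replicates 1 to 3. Every vehicle value lay above every rMANF value, and the vehicle mean was 2.30 times the rMANF mean. Its difference of −1.20 ± 0.27 (SE) had the smallest adjusted p of the 10 genes (limma, adjusted p = 0.0986). Over the 6 fits that left out 1 library it ran from −1.40 to −0.93.

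Ctss, cathepsin S (chromosome 3, 95526786 to 95556403, plus strand), was the most abundant of the 10 in every library. It measured 680, 907 and 702 TPM under vehicle, against 536, 510 and 332 TPM under rMANF, with no overlap. The difference was −0.75 ± 0.19 (SE; limma, adjusted p = 0.115). Ciita, the coactivator (chromosome 16, 10480059 to 10528418, plus strand), was among the rarest, at 1.30, 3.58 and 1.92 TPM under vehicle, against 1.18, 1.30 and 0.481 TPM under rMANF. Its groups touched, since vehicle replicate 1 and rMANF replicate 2 both stood at 1.30 TPM. The difference of −0.68 ± 0.30 (SE; limma, adjusted p = 0.255) was −0.41 without vehicle replicate 2, and at this level it depended on the amount added before the logarithm, reaching −1.10 with 0.1 TPM and −0.27 with 5 TPM. The exact permutation p was 0.1, the smallest that 3 against 3 libraries allow, for the 6 genes without overlap and 0.2 to 0.7 for the other 4.

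**Figure D2:**
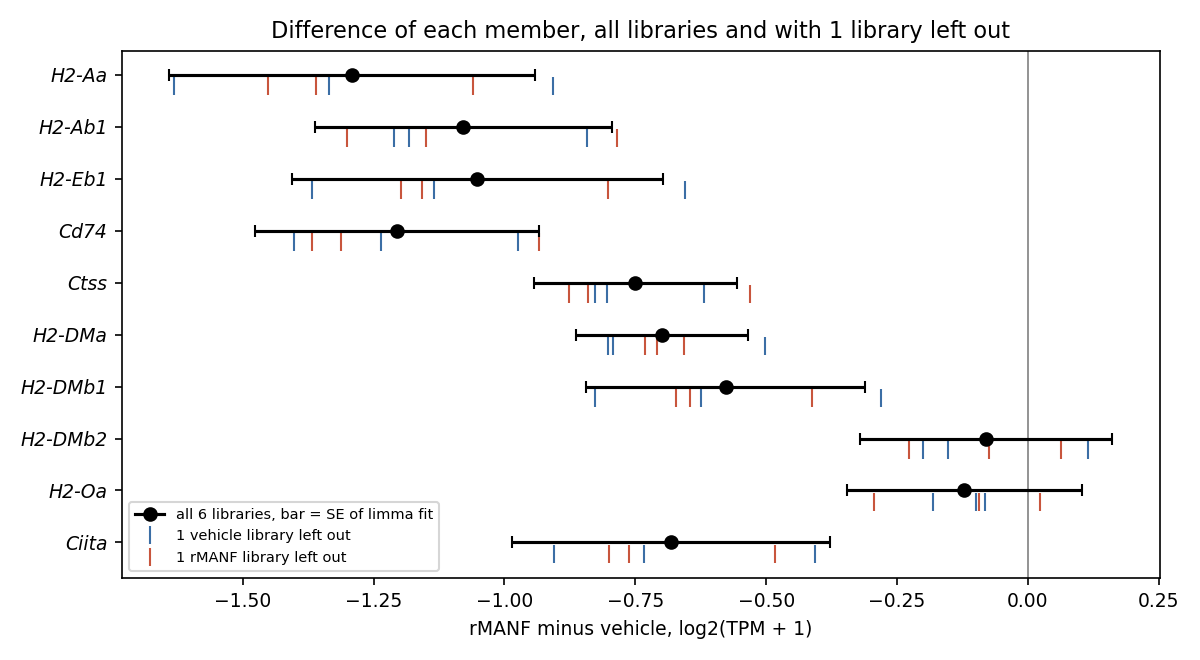
Difference of each gene as rMANF minus vehicle on the log2(TPM + 1) scale (x axis): black points with the standard error of the limma fit for all 6 libraries, and vertical ticks for the fits that left out 1 vehicle (blue) or 1 rMANF (red) library. H2-Aa, Cd74, H2-Ab1 and H2-Eb1 lie furthest from 0, and ticks on the other side of 0 occur for H2-DMb2 and H2-Oa.

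The order of the levels was nearly the same in all 6 libraries. Ctss ranked first and Cd74 second in each, followed by H2-Aa, H2-Ab1 and H2-Eb1 in ranks 3 to 5, H2-DMb1 sixth and H2-DMa seventh, with H2-DMb2, Ciita and H2-Oa in the last ranks. H2-Aa lay above H2-Eb1 in all 6 libraries. H2-Ab1 changed places with H2-Aa in rMANF replicate 1 and with H2-Eb1 in vehicle replicate 2, so its place among the chains was not fixed. Vehicle replicate 2 was the highest library for 9 of the 10 genes (all but H2-Oa). The lowest was rMANF replicate 3 for 9 of the 10, again with H2-Oa as the exception.

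Because TPM is corrected for length, ratios between members within a library could be compared, and 6 were. H2-Aa over H2-Ab1, the chains that pair at the cell surface, stood at 1.05, 1.73 and 1.53 with vehicle and 0.981, 1.38 and 1.33 with rMANF, and the groups overlapped. Cd74 over H2-Ab1 was tighter, at 1.61, 1.76 and 1.95 with vehicle and 1.49, 1.70 and 1.68 with rMANF. The log2 ratio thus differed by −0.12, against a between-group difference of −1.20 for Cd74 itself. H2-DMa over H2-Ab1 stood at 0.0942, 0.0856 and 0.0893 with vehicle and at 0.0853, 0.109 and 0.163 with rMANF, where rMANF replicate 3 had the highest ratio. Ctss over Cd74 was the only ratio without overlap, at 1.49, 1.10 and 1.22 with vehicle and 1.65, 1.69 and 1.86 with rMANF, a log2 difference of 0.46 (exact two-sided permutation p = 0.1, the smallest possible; adjusted over the 6 ratios p = 0.6). The remaining ratios, H2-Eb1 over H2-Ab1 and H2-DMa over the sum of both beta genes, differed by 0.03 and −0.16 and overlapped. The other 5 ratios had exact permutation p values of 0.4 to 0.8.

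The class II genes on chromosome 17 lie among genes of other function. Of the genes starting within 200 kb of a member, 34 had rows and 23 were tested, 8 lower and 15 higher, where 42.74% of all tested genes lay lower. For 0 of the 23 did all rMANF values lie below all vehicle values, and for 9 they lay above, beside 9.02% and 18.9% of all tested genes. Under each of the 3 other scalings the first count was also 0 and the second 8 or 9, and the first was 2 without vehicle replicate 3 or without rMANF replicate 2. None passed limma's test. The 3 of smallest p were Ring1, a Polycomb ubiquitin ligase (16.8 ± 1.10 and 23.1 ± 0.520 TPM), Wdr46 of the nucleolus (41.5 ± 2.46 and 54.9 ± 0.468 TPM), and the retinoid X receptor gene Rxrb (47.0 ± 5.38 and 62.7 ± 3.04 TPM; SD, n = 3 each). Between H2-DMb1 and H2-Ab1 lie the class I pathway genes Psmb9, Tap1, Psmb8 and Tap2, whose differences were −0.27 ± 0.18, 0.06 ± 0.14, −0.10 ± 0.14 and 0.21 ± 0.09 (SE).

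**Figure D3:**
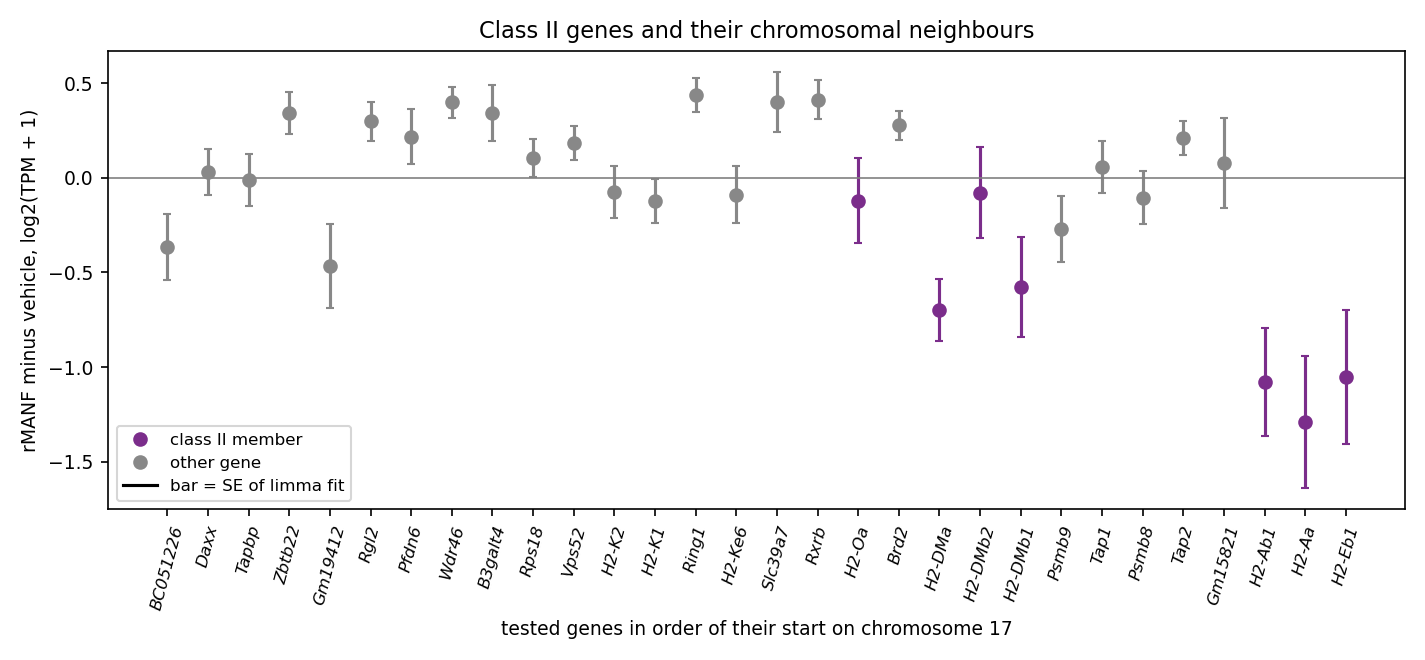
Difference of each tested gene as rMANF minus vehicle on the log2(TPM + 1) scale (y axis, bars are standard errors of the limma fit), for class II members (purple) and other genes (grey) in the order of their start on chromosome 17. H2-Ab1, H2-Aa and H2-Eb1 lie between −1.29 and −1.05, while Psmb9, Tap1, Psmb8 and Tap2, which stand just before them, lie between −0.27 and 0.21.

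Class II transcription also needs the RFX and NF-Y complexes, CREB and acetyltransferases, which are expressed in most cells. Of 12 tested regulators 5 lay lower and 7 higher, 0 had groups apart in either direction, 0 passed limma's test and the median difference was 0.02, with a sign that turned under each of the 3 other scalings. Up to 2 genes had groups apart in 1 direction with 1 library left out. Here and in the lists that follow, counts of genes with groups apart stand beside 9.02% (rMANF lower) and 18.9% (rMANF higher) of all tested genes, and with 1 library left out fewer libraries have to separate. Rfxank, an RFX subunit, measured 36.9 ± 9.17 TPM under vehicle, against 40.0 ± 0.920 TPM under rMANF, and Rfxap, its partner, 22.3 ± 2.31 and 23.9 ± 2.27 TPM (SD, n = 3 each). Rfx5, the DNA-binding RFX subunit, stood at 7.28 ± 1.27 and 7.12 ± 0.802 TPM. The NF-Y subunit gene Nfyb stood at 32.5 ± 2.73 and 33.9 ± 1.98 TPM, the acetyltransferase gene Ep300 at 12.8 ± 1.26 and 14.0 ± 0.664 TPM, and Spi1, a factor of myeloid cells and B cells, at 33.4 ± 2.64 and 29.3 ± 3.83 TPM. Nfya, Nfyb, Nfyc and Crebbp turned sign under at least 1 of the other scalings, so no direction is given for them.

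Interferon gamma acts through its receptor and the kinases JAK1 and JAK2 to induce Ciita. Of 9 tested genes of that path 8 lay lower and 0 passed limma's test, with a median of −0.21. That median was −0.13 without rMANF replicate 3, −0.07 beside the skeletal muscle level and −0.02 with vehicle replicates 1 and 2 both left out. Ifng itself was low and stood out in 1 library, at 1.37, 3.92 and 1.17 TPM under vehicle, against 1.20, 0.856 and 0.608 TPM under rMANF. Irf1, a transcription factor gene that interferon gamma induces, overlapped between groups (74.5 ± 23.2 and 59.5 ± 5.14 TPM), and Jak1 lay higher (67.0 ± 9.54 and 77.9 ± 5.49 TPM; SD, n = 3 each).

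Genes known to respond to interferon gamma lay lower for 10 of 11 tested, with a median of −0.52, 3 with groups apart and 0 past limma's test. The count apart was 5 with quantile normalization and 5 with median of ratios scaling, which put 12.3% and 13.2% of all tested genes apart below. It was 10 without vehicle replicate 3 and 7 without rMANF replicate 2. The median was −0.38 without vehicle replicate 2 and −0.13 when the skeletal muscle level was a covariate. With vehicle replicates 1 and 2 both left out, leaving 1 vehicle library, it was −0.09. Cxcl9, a T cell attractant, ranged over 35.0, 89.3 and 33.4 TPM under vehicle, against 19.8, 23.5 and 12.7 TPM under rMANF. As for the class II chains, vehicle replicate 2 was the highest and rMANF replicate 3 the lowest library. Cxcl10 did not follow that order, at 200, 191 and 168 TPM under vehicle, against 121, 119 and 146 TPM under rMANF. Gbp4, a guanylate-binding protein, measured 11.0, 17.1 and 7.37 TPM under vehicle, against 6.13, 5.99 and 4.31 TPM under rMANF, while the peptide transporter gene Tap1 differed by 0.06 ± 0.14 (SE).

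Other endolysosomal enzymes of antigen processing were abundant and showed smaller differences than Ctss, except Ctsc. Of 11 tested genes 8 lay lower, 3 had groups apart with rMANF lower, 0 passed limma's test and the median was −0.13; Lgmn, among the other 3, turned sign under 1 of the other scalings. The median was −0.04 without rMANF replicate 3, and the count apart 5 without vehicle replicate 1. Ctsc, cathepsin C, which activates serine proteases of granules, measured 121, 151 and 134 TPM under vehicle, against 79.3, 88.8 and 57.8 TPM under rMANF (−0.85 ± 0.16, SE; limma, adjusted p = 0.0893). Ifi30, the thiol reductase that unfolds antigens for class II loading, measured 238, 278 and 233 TPM under vehicle, against 195, 181 and 172 TPM under rMANF (−0.45 ± 0.10, SE; limma, adjusted p = 0.0947). Ctsb, cathepsin B, stood at 663 ± 36.8 and 594 ± 12.9 TPM and the protease inhibitor gene Cst3 at 736 ± 57.7 and 696 ± 53.0 TPM (SD, n = 3 each), the latter with a sign that turned under quantile normalization.

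Surface class II is removed by the ubiquitin ligase MARCH1, which IL-10 induces and CD83 opposes. Of 6 tested genes of that control 5 lay lower, 4 with groups apart, and 0 passed limma's test (median −0.50). Cd83 measured 10.7, 12.5 and 11.1 TPM under vehicle, against 8.94, 7.01 and 6.49 TPM under rMANF, and Il10 3.63, 2.64 and 4.29 TPM under vehicle, against 1.85, 2.08 and 1.33 TPM under rMANF. Both had groups apart. March1 overlapped (6.26 ± 0.713 and 3.87 ± 1.84 TPM), whereas March8, a related ligase expressed in many cell types, lay higher in every rMANF library (34.2 ± 2.91 and 40.4 ± 4.26 TPM; SD, n = 3 each). The IL-10 receptor genes Il10ra and Il10rb differed by −0.43 ± 0.16 and −0.40 ± 0.10 (SE), both with groups apart.

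Costimulatory genes and receptors that meet class II on T cells lay lower for 6 of 7 tested, with a median of −0.37, 3 with groups apart and 0 past limma's test. Most were low: the median was −0.16 with 5 TPM added before the logarithm, and −0.10 with 1 gene apart when genes had to average 5 TPM. It was −0.34 without vehicle replicate 2 and −0.21 beside the muscle level. Cd86, which signals to CD28 beside the class II contact, measured 10.6, 10.4 and 7.56 TPM under vehicle, against 5.44, 4.22 and 3.08 TPM under rMANF, a difference of −1.01 ± 0.20 (SE; limma, adjusted p = 0.0893). The other costimulatory ligands Cd80, Cd40 and Icosl overlapped, at −0.37 ± 0.21, −0.10 ± 0.14 and 0.06 ± 0.14 (SE). Cd4, the coreceptor for class II, was low at 2.32 ± 0.365 and 1.78 ± 0.282 TPM with groups apart. Ctla4 and Lag3, inhibitory T cell receptors of which the second binds class II, differed by −1.09 ± 0.32 and −0.55 ± 0.25 (SE), and Cd28 was too low to test.

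The cytokine MIF and the receptors that act with surface CD74 did not lie lower with it. Of 5 tested genes 5 had positive differences, 0 had groups apart and 0 passed limma's test, with a median of 0.12, or 0.04 without rMANF replicate 1, 0.08 without vehicle replicate 2 and 0.03 beside the muscle level. Without any 1 of vehicle replicates 1 and 3 and rMANF replicates 2 and 3, 1 gene had groups apart. Mif stood at 2433 ± 263 TPM under vehicle, against 2430 ± 136 TPM under rMANF, a difference whose sign turned under other scalings. Cd44, the signalling partner of CD74, measured 178 ± 29.6 and 192 ± 9.72 TPM (SD, n = 3 each). Ddt, the second ligand, Cxcr4 and Ackr3 differed by 0.10 ± 0.13, 0.24 ± 0.18 and 0.16 ± 0.12 (SE), and Cxcr2 was too low to test.

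The class I chains, which present cytosolic peptides to CD8+ T cells, had smaller differences than the class II chains. H2-K1 and H2-D1 differed by −0.12 ± 0.11 and 0.16 ± 0.11, the light chain gene B2m by −0.29 ± 0.09, and H2-T23, H2-M3 and H2-Q7 by −0.40 ± 0.19, −0.17 ± 0.14 and −0.02 ± 0.13 (SE), with 0 of 6 past limma's test and 1 with groups apart. That count was 0 under quantile normalization, 3 without vehicle replicate 3 and 2 without rMANF replicate 1. The list's median of −0.15 was −0.23 without vehicle replicate 3, −0.04 without rMANF replicate 3 and −0.03 beside the muscle level. It turned to 0.007 with vehicle replicates 1 and 2 both left out. The difference between both kinds of chain was not tested.

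Markers of cells that carry class II were measured beside it. Macrophage markers, 20 with rows, summed to 3131, 3752 and 3714 TPM across vehicle replicates 1 to 3, against 2792, 2603 and 1958 TPM across rMANF replicates 1 to 3. All 19 tested lay lower (median −0.43), 8 with groups apart, beside 9.02% of all tested genes, and 0 past limma's test. The count apart was 13 without vehicle replicate 1 and 9 without vehicle replicate 2, and the median −0.45 without vehicle replicate 2 and −0.42 beside the muscle level. Lyve1, among them, turned sign under quantile normalization. Dendritic cell markers summed to 294 to 301 TPM with vehicle and 317 to 346 TPM with rMANF, a sum dominated by Fscn1, an actin-bundling protein gene that other cells also express. Of the 12 tested 8 lay lower (median −0.32) and 4 higher (Zbtb46 turned sign under quantile normalization), with 4 apart below, 1 apart above and 0 past limma's test. The median was −0.20 without rMANF replicate 3 and −0.12 beside the muscle level, and the count apart above was 3 without vehicle replicate 1 and 2 without rMANF replicate 1. Of genes that define dendritic cells, Flt3 and Xcr1 reached at most 0.682 and 0.551 TPM, while Batf3, Clec9a and Zbtb46 reached 7.89, 3.67 and 2.44 TPM. B cell markers other than the immunoglobulin genes Ighm and Igkc stayed at or under 3.99 TPM, the highest value being that of Cd79b in vehicle replicate 3. Igkc measured 170, 55.1 and 17.6 TPM under vehicle, against 10.1, 5.79 and 23.7 TPM under rMANF. Ighm measured 41.8, 13.3 and 11.6 TPM under vehicle, against 5.93, 9.47 and 11.7 TPM under rMANF. Both were highest in vehicle replicate 1, and their groups overlapped. Ms4a1, a defining B cell gene, reached at most 0.113 TPM. Of the 5 tested 4 lay lower, 0 had groups apart and 0 passed limma's test. The count apart was 1 under 2 of the other scalings and up to 2 with 1 library left out.

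Set against the mean log2 level of the 19 tested macrophage markers in the same library, a comparison chosen after the values had been seen and left without a test, Cd74 stood 3.06, 3.95 and 3.36 log2 units above them with vehicle and 2.91, 2.86 and 2.40 with rMANF. H2-Ab1 stood 2.37, 3.13 and 2.40 above them with vehicle and 2.33, 2.10 and 1.65 with rMANF. Both kept the groups apart on this scale, H2-Ab1 only narrowly. Ctss, which differed by −0.28, was also apart, but its lowest vehicle value of 3.634 almost met its highest rMANF value of 3.629. For H2-Aa and H2-Eb1 the groups overlapped on this scale, although the mean differences were −0.82 and −0.58. H2-DMa, Ciita and H2-DMb1 differed by −0.23, −0.21 and −0.10, and H2-DMb2 and H2-Oa by 0.39 and 0.35, all with groups that overlapped. The same marker mean was subtracted from every gene, so genes that themselves differed little come out higher on this scale. Set against the 12 tested dendritic cell markers instead, also without a test, H2-Aa, Cd74 and H2-DMa had groups apart (−1.07, −0.99 and −0.48). H2-Ab1 and Ctss were narrowly apart (−0.86 and −0.53). H2-Eb1, Ciita and H2-DMb1 overlapped at −0.84, −0.47 and −0.36, as did H2-DMb2 and H2-Oa at 0.14 and 0.09. The share of macrophage number and of class II RNA per macrophage in the difference was not tested.

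**Figure D4:**
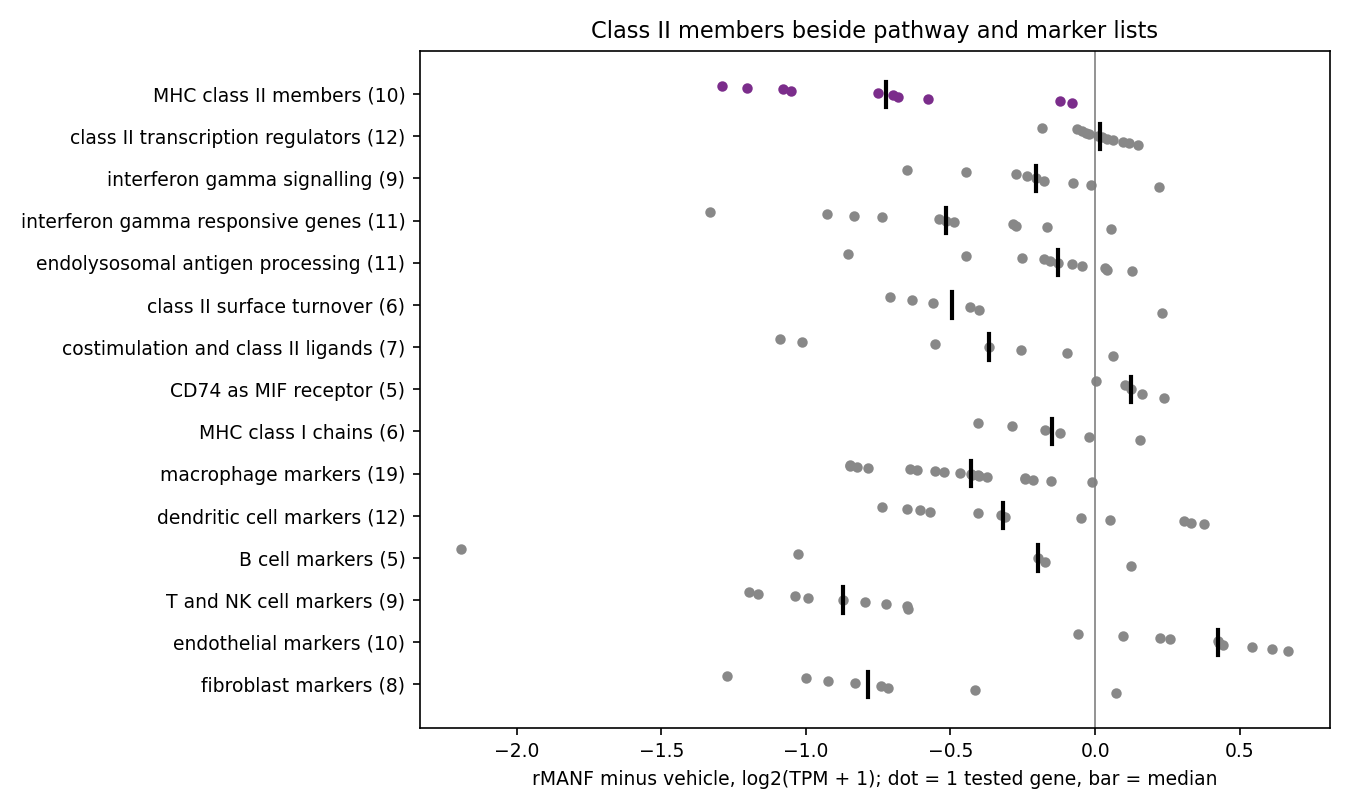
Difference as rMANF minus vehicle on the log2(TPM + 1) scale (x axis) for each tested gene of the class II members (purple) and of the pathway and marker lists (grey), with a black bar at each median and the number of tested genes in brackets. The class II median lies at −0.72, that of the transcription regulators at 0.02 and that of the macrophage markers at −0.43.

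Markers of other cells also moved with the groups. T and NK cell markers, a source of interferon gamma, summed to 56.0, 103 and 37.8 TPM under vehicle, against 30.0, 36.3 and 18.4 TPM under rMANF, so that vehicle replicate 2 was highest and rMANF replicate 3 lowest, as for the class II genes. All 9 tested lay lower (median −0.87), 5 with groups apart and 0 past limma's test. The median was −0.50 without vehicle replicate 2, −0.20 beside the muscle level and −0.44 with 5 TPM added before the logarithm. The count apart was 8 without vehicle replicate 3, 9 without rMANF replicate 2 and 3 when genes had to average 5 TPM. Fibroblast markers had a median of −0.78 over 8 tested, 5 apart below, and endothelial markers one of 0.43 over 10 tested, 4 apart above, with 0 past limma's test in both. Beside the muscle level these medians were −0.43 and 0.16. The endothelial count apart was 9 without vehicle replicate 3, 7 without rMANF replicate 1 and 1 when genes had to average 5 TPM. Of 7 melanocyte markers 3 had rows. Pmel and Sox10 reached at most 0.341 and 0.160 TPM, and Mitf, which other cell types also express, stood at 7.36 to 12.2 TPM in every library. Fitted beside the skeletal muscle level, the median class II difference was −0.34, with H2-Aa at −0.66, Cd74 at −0.79 and H2-DMb1 at −0.07. No rMANF library reached the muscle level of any vehicle library, so the covariate and the group cannot be told apart in full.

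Among the 9762 other tested genes averaging at least 5 TPM, the 5 whose log2(TPM + 1) followed the mean of the 10 class II genes most closely over the 6 libraries were Snapc5 (Pearson r = 0.997), Cxcl16 (0.994), Slc51a (0.988), Bcl2a1b (0.987) and Cd52 (0.983). The 6 points fall into both treatment groups, so r holds the group difference as well as the spread within groups. Cxcl16, a chemokine, measured 40.2, 59.7 and 43.2 TPM under vehicle, against 37.7, 35.8 and 28.9 TPM under rMANF. Cd52, a surface glycoprotein of leukocytes, measured 348, 614 and 493 TPM under vehicle, against 319, 317 and 224 TPM under rMANF, with the same highest and lowest libraries as Cd74. All 5 genes had groups apart with rMANF lower, beside 9.02% of all tested genes. The mean they were picked to follow was itself apart, so this order comes largely from the selection. None of the 5 passed limma's test (adjusted p of 0.136 to 0.195).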

How the data were processed

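The authors deposited log2 TPM per gene for 6 libraries in 1 table, with no offset before the logarithm (libraries summed to 999980 to 1000003 TPM). Values of −9 were set to 0 TPM. Per the labels' protocols, RNA was taken up in QIAzol and libraries were made with Nextera XT, a kit without strand information. The tools listed in the submitters' processing notes are Salmon 0.14.1, HTSeq 0.11.0, fastp and cutadapt, and the build is mm10. Their roles, the annotation and any filter are not given here.

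Genes averaging at least 1 TPM were fitted with limma 3.58.1 in R 4.3.3 on log2(TPM + 1), a scale that shrinks differences of low genes (no covariates, variances with a mean trend, two-sided, Benjamini-Hochberg over the 12865 tested genes, threshold 0.05). The procedure was run on simulated data with independent normal noise, where the check was that added changes were estimated without bias. How often such changes passed the threshold is not reported here. Single values also had an exact two-sided permutation test over 20 assignments. Positions are from GENCODE M21 (GRCm38, the assembly named mm10), and promoters from RefSeq (GRCm38.p6).

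The members and lists were chosen with earlier results of these data known. Named are the 10 members, all genes of pathway lists of up to 8, otherwise the 3 of smallest p and the 2 of highest level, the 3 neighbours within 200 kb of smallest p, and the 5 genes most like the members' mean. Not every gene that this rule names is reported here. Genes outside this rule (the cell type markers, Brd2, Rfx5, the NF-Y genes, Crebbp, and Psmb8, Psmb9 and Tap2) were named after their values were seen. Alternatives covered the amount added before the logarithm, the filter, scaling, variance model, library weights, replicate block, muscle covariate and libraries left out.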

Additional observations from a re-analysis of the deposited data

How the results depend on the processing

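The differences of H2-Aa, H2-Ab1, H2-Eb1, Cd74, Ctss, H2-DMa, H2-DMb1 and Ciita kept their sign under every alternative run. None of the 10 genes passed an adjusted p of 0.05 in any of them except with library weights, where 3 did: H2-Aa (limma, adjusted p = 0.0338), Cd74 (0.0346) and H2-DMa (0.0399). The median over the 10 was −0.34 with the skeletal muscle covariate. It ran from −0.87 to −0.56 over the fits that left out 1 library, and the number of genes with all rMANF values lower ran from 6 to 8. The sign of H2-DMb2 turned with library weights (0.024), with the muscle covariate (0.31) and when vehicle replicates 1 and 2 were both left out (0.067). It ran from −0.23 to 0.12 with 1 library left out, H2-Oa from −0.29 to 0.024, and the log2 ratio of H2-Eb1 to H2-Ab1 from −0.16 to 0.19. The cause was not tested. With a filter at 5 TPM, Ciita, H2-DMb2 and H2-Oa were not tested. For a gene that stays in, the filter, the variance models and the replicate block leave its difference unchanged. A sign kept under those runs was fixed in advance.

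Replicate numbers are shared between groups, but same-numbered libraries did not deviate together (r = −0.0694, 0.0291 and 0.0495 across genes, which are not independent). With the replicate block 0 of the 10 passed. The median of −0.72 could not move, since in this balanced design the block leaves every difference unchanged. Depth is unknown, so the lowest genes (H2-DMb2, H2-Oa, Ciita) cannot be given a counting error.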
